A study of Mus musculus with 5 samples.

Results

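Lipid-associated macrophage genes were measured in bone marrow–derived macrophages (BMDMs) that had been cocultured with breast cancer cells carrying or lacking Adam17. The set held 9 genes listed by symbol, Spp1, Gpnmb, Fabp4, Fabp5, Lpl, Cd9, Cd63, Plin2, and Lgals3. All 9 were found among the 17057 genes listed in the libraries, and all 9 were among the 12576 genes with enough reads to be tested.

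Macrophages that take up large amounts of lipid, in adipose tissue, atherosclerotic plaques, and tumors, are known to turn on a shared program of lipid uptake, fatty acid binding, droplet storage, and lysosomal breakdown. Genes of this program are used as markers of lipid-associated macrophages, and many of them are also expressed by macrophages grown in culture with the growth factor M-CSF. In tumors, cells of this kind are often described by SPP1 and GPNMB.

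RNA-Seq was done on 5 libraries of BMDMs from mice of the Balb/c strain, differentiated from bone marrow with M-CSF and then kept for 48 hours with 4T1 cells, a mouse mammary carcinoma line of the same strain. The cell types shared the medium across a porous insert and were not in contact. In the WT group (n = 2) the 4T1 cells were unmodified, and in the Adam17-/- group (n = 3) ADAM17, a protease that sheds membrane-bound growth factors and cytokines, had been knocked out with CRISPR/Cas9 in the 4T1 cells and not in the macrophages. All 3 Adam17-/- libraries carried the same knock-out designation, so the loss of Adam17 and any other property of that knock-out line cannot be told apart. The labels do not say whether replicates came from separate mice or cultures, and p-values therefore measure only the spread between these samples, which may be technical.

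The libraries held 14658694 to 20788373 expected counts, estimates of the reads from each transcript, which were summed per gene. The WT libraries differed more from each other than any Adam17-/- pair did, with a chi-square per degree of freedom over gene counts of 25.7 against 5.22 to 6.32. Differences between groups are given on CPM, counts scaled to a common library size with TMM factors, and levels of different genes are compared only as FPKM, which divides by transcript length. Adam17 itself was read in the macrophages at 198 and 200 CPM in the WT group and at 152, 164, and 161 CPM in the Adam17-/- group, a log2 fold change of -0.32 ± 0.0779 (SE, edgeR adjusted p = 0.0129). Since the deletion was made in the cancer cells, this level does not check the labels. Macrophage markers were abundant in every library (summed FPKM of 8 genes 11289 to 16316, mostly Lyz2). In contrast, 8 epithelial markers of mammary cancer cells summed to 2.90 to 3.92 FPKM, mostly Cdh1.

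Gpnmb and Plin2 fell in the Adam17-/- group, and they were the 2 of the 9 genes that passed the test at an adjusted p of 0.05. This is 22.2% of the set, beside 31.7% of all genes tested, of which 16.8% were lower and 14.9% were higher. None of the 9 passed with a change of 2-fold or more, beside 4.22% of all genes. In CPM the libraries of both groups did not overlap for the same 2 of the 9 genes, beside 58.1% of all genes. The median log2 fold change was 0.03 over the 9 genes and 0.01 over all genes tested. These shares lay below or near those of all genes, and the direction differed among the 9.

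**Figure D1:**
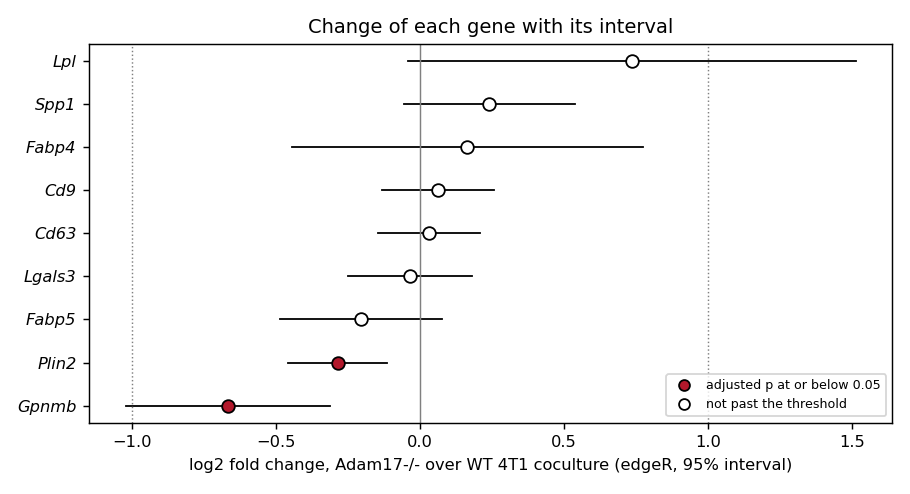
Log2 fold change (x axis) of each of the 9 genes (y axis) between macrophages cocultured with Adam17-/- and with WT 4T1 cells. Bars give the 95% interval derived from the edgeR fit, and dotted lines mark a 2-fold change. Gpnmb at -0.67 and Plin2 at -0.29 are filled as past the threshold, and the interval of Lpl, from -0.04 to 1.51, is the widest.

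The upstream sequences of the 2 genes that changed, and of Spp1, a marker often used to name these cells in tumors, are given for the context of their transcription start. They were taken from RefSeq (GRCm38.p6), in which 6 of the 9 genes had an upstream window (Spp1, Gpnmb, Cd9, Cd63, Plin2, and Lgals3), and Spp1 had a second one, for 7 windows in all. The second window of Spp1 and the window of Cd63 lie inside the annotated gene. Each is read 5′ to 3′ on the strand of the gene and ends just before a start annotated in RefSeq. The start used for Plin2 lies inside the annotated gene, so only the 92 bases outside the gene are printed, ending at its bound. The bases after the start were found near the 5′ end of a GENCODE transcript for 5 of the 6 genes and not for Gpnmb, whose start therefore rests on RefSeq alone. Capitals mark a match to one of the motifs named after the sequences. Gpnmb lies at chr6:49036268-49036517 (plus strand), Spp1 at chr5:104434861-104435110 (plus strand), and Plin2 at chr4:86670218-86670309 (minus strand).
Gpnmb: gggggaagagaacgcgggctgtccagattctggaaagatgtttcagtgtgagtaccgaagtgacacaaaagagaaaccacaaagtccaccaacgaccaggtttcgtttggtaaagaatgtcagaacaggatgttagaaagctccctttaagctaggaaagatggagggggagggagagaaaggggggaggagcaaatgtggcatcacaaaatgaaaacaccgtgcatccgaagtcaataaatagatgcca
Spp1: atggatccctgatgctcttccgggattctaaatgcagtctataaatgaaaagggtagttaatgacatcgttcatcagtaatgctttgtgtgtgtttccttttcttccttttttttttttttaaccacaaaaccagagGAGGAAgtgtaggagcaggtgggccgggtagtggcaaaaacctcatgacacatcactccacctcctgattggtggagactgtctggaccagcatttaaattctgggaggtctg
Plin2: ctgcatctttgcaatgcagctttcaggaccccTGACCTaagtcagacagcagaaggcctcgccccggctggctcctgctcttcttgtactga
The 250 bases before each start were searched on both strands for TGANTCA (AP-1), CACGTG (E-box), AGGTCA (a nuclear receptor half-site), the direct repeat 1 element (DR1, a repeated, looser form of that half-site), and GAGGAA (the core bound by PU.1). The half-site can lie inside DR1, so these motifs overlap. The AP-1 and E-box letters were in 0 of 7 windows, beside 6.75% and 6.02% of the 32851 windows in the table, and DR1 in 0 of 7, beside 0.338%. The half-site was in 1 of 7, beside 14.0%. It lay in Plin2, as TGACCT on the strand printed, at bases -60 to -55 from the bound of the gene. The PU.1 core was in 2 of 7, beside 23.3%, in Spp1 at bases -113 to -108 from the start and in Cd63. A match describes letters in the window only. The window of Gpnmb held none of the 5 motifs.

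Per transcript length, Gpnmb was the most abundant of the 9 genes, with a mean over the 5 libraries of 2112 FPKM, followed by Spp1 at 1007 FPKM and Lgals3 at 742 FPKM. Cd63 followed at 352 FPKM, Fabp5 at 208 FPKM, Cd9 at 202 FPKM, and Plin2 at 150 FPKM. The lowest levels were those of Lpl, at 18.9 FPKM, and Fabp4, at 8.14 FPKM. The order was kept between most neighbors in every library. The ranges of Fabp5 and Cd9 overlapped, and Fabp5 was above Cd9 in 4 of 5 libraries. The ranges of Lpl and Fabp4 also overlapped, though Lpl was above Fabp4 in 5 of 5.

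**Figure D2:**
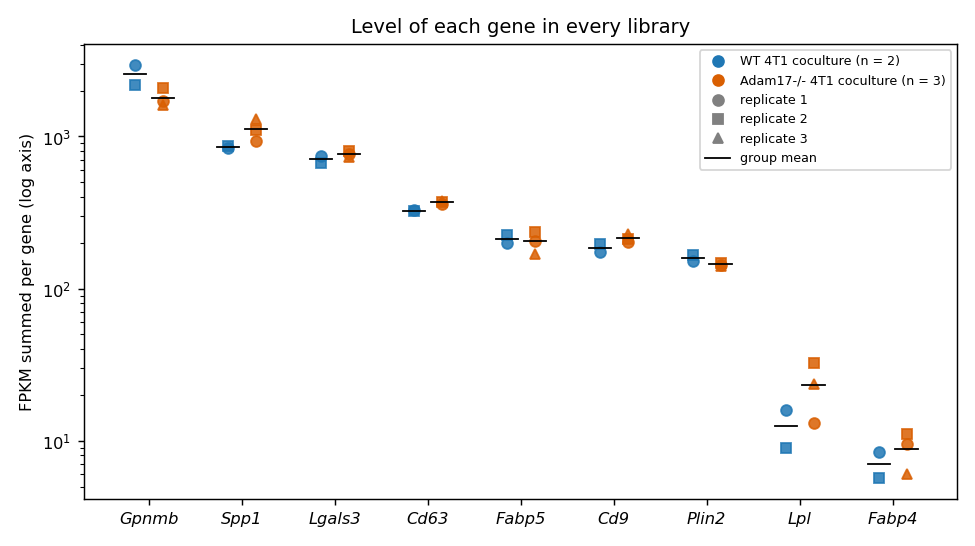
FPKM summed per gene (log axis) of the 9 genes (x axis) in every library, with the WT 4T1 coculture in blue and the Adam17-/- 4T1 coculture in orange, symbols for replicate numbers, and a line at each group mean. Gpnmb lies at 1613 to 2965 FPKM in the 5 libraries and Fabp4 at 5.67 to 11.03 FPKM.

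Spp1 encodes osteopontin, a secreted phosphoprotein that binds integrins and CD44. It was read at 1245 and 1222 CPM in the WT group and at 1207, 1456, and 1711 CPM in the Adam17-/- group. Adam17-/- replicate 3 was the highest library, and replicate 1 of that group was below both WT libraries, so the groups overlapped. The means were 1234 ± 16.6 CPM (SD, n = 2) and 1458 ± 252 CPM (SD, n = 3), and the log2 fold change was 0.24 ± 0.132 (SE, edgeR adjusted p = 0.191) with a 95% interval from -0.06 to 0.54. In CPM the difference was within the spread, and the interval lies below a 2-fold change. The value was 0.13 without Adam17-/- replicate 3 and 0.38 without Adam17-/- replicate 1, neither of them called. With library size only Spp1 passed (0.39, edgeR adjusted p = 0.0475), and in FPKM its groups did not overlap. Of the 4 Spp1 transcripts listed, the one of 1428 bases held 92.6% to 94.3% of the gene's counts in each library.

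Lgals3 encodes galectin-3, a lectin that binds β-galactosides and is released by macrophages. It was read at 1078 and 917 CPM in the WT group and at 962, 1020, and 939 CPM in the Adam17-/- group. All 3 Adam17-/- libraries lay between the WT libraries. The log2 fold change was -0.03 ± 0.0955 (SE, edgeR adjusted p = 0.806), with a 95% interval from -0.25 to 0.18, and its sign changed with the scaling of the libraries (0.11 with library size only).

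The division of Lgals3 counts between its 2 listed transcripts differed more than their sum. The transcripts had 1379 and 1406 bases, 27 bases apart in length, and in the annotation (GENCODE, GRCm38) their first exons run from 47373813 to 47373952 and from 47373889 to 47373979 of chromosome 14. The ends of these exons differ by the same 27 bases as the deposited lengths, and the different starts are those of the annotation, whose models need not match the transcripts that were quantified. The start codon of both models lies further downstream, at 47379527. The longer transcript held 48.8% and 54.3% of the gene's expected counts in the WT group and 42.7%, 44.0%, and 38.3% in the Adam17-/- group. The means were 51.6% ± 3.90 (SD, n = 2) and 41.7% ± 2.99 (SD, n = 3), and the groups did not overlap. This description was chosen after the values were seen and has no test. As background, among 2510 genes with a second transcript of at least 5% of their counts and at least 100 counts on average, the share of the leading transcript did not overlap between groups in 31.0%, and 26.8% had a larger difference between group means than Lgals3. Spp1 was the other member with such a second transcript, of 1480 bases, which held 6.09% and 6.01% in the WT group and 4.40%, 5.19%, and 4.88% in the Adam17-/- group. Transcript counts are estimates that rest on reads shared between the transcripts.

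**Figure D3:**
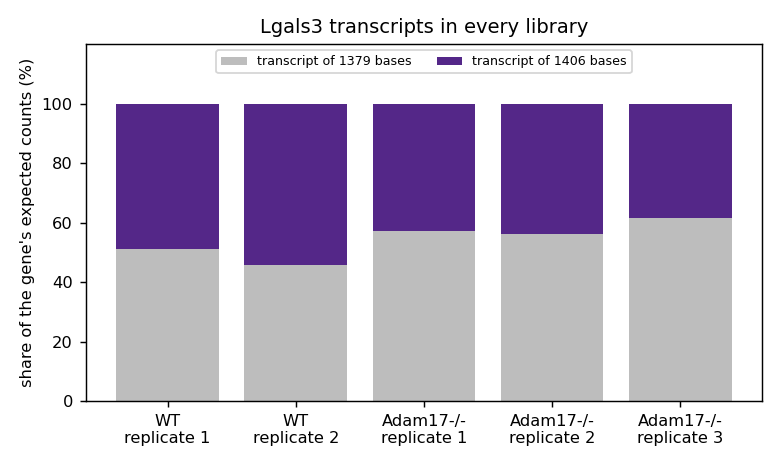
Share of the expected counts of Lgals3 (y axis, in percent) assigned to its transcripts of 1379 bases (grey) and 1406 bases (purple) in each of the 5 libraries (x axis). The purple share is 48.8% and 54.3% in the WT libraries and 38.3% to 44.0% in the Adam17-/- libraries.

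Gpnmb encodes a transmembrane glycoprotein of lysosomes and melanosomes that is induced when lysosomes are loaded. It was read at 12048 and 8493 CPM in the WT group and at 6118, 7478, and 5814 CPM in the Adam17-/- group. Every Adam17-/- library was below both WT libraries, although the WT libraries differed more from each other than the lower WT library did from the highest Adam17-/- library. The means were 10271 ± 2513 CPM (SD, n = 2) and 6470 ± 886 CPM (SD, n = 3), and Gpnmb fell to 0.63 times its WT level, a log2 fold change of -0.67 ± 0.158 (SE, edgeR adjusted p = 0.0122) with a 95% interval from -1.02 to -0.31. Gpnmb was among the most abundant transcripts of these cells, at rank 8 to 17 by FPKM in the 5 libraries. It took 1.11% and 0.817% of all counts in the WT group and 0.603% to 0.775% in the Adam17-/- group. In bulk samples such as these, fewer cells that express a gene and less RNA per cell cannot be told apart. Without Adam17-/- replicate 1 the change was -0.60 with an adjusted p of 0.0590, and on FPKM (limma, log2(FPKM + 0.1)) it was -0.51 with an adjusted p of 0.0501, so the call was lost in both. With library size only in edgeR the change was also -0.51, with an adjusted p of 0.0269. The size rested on the WT libraries, at -0.40 (adjusted p = 0.0386) without WT replicate 1 and -0.90 (adjusted p = 0.000232) without WT replicate 2.

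Lpl encodes lipoprotein lipase, the secreted enzyme that frees fatty acids from triglyceride-rich lipoproteins. It was read at 69.0 and 37.2 CPM in the WT group and at 49.4, 125, and 91.4 CPM in the Adam17-/- group. Its highest library was 3.37 times its lowest, the widest span of the 9 genes, and Adam17-/- replicate 1 lay between the WT libraries. The log2 fold change was 0.74 ± 0.347 (SE, edgeR adjusted p = 0.133), with a 95% interval from -0.04 to 1.51, so that neither no change nor a change of over 2-fold lay outside it. Single libraries decided this value, which was 1.24 (adjusted p = 0.0199) without WT replicate 1, 1.05 (adjusted p = 0.0284) without Adam17-/- replicate 1, 0.35 (adjusted p = 0.417) without WT replicate 2, and 0.43 (adjusted p = 0.363) without Adam17-/- replicate 2. Adam17-/- replicate 2, the highest library for Lpl, was also the highest for the fatty acid receptor gene Cd36 (23.3 FPKM) and for 6 of 9 markers of neutrophil precursors, a comparison made after the values were seen. These were the granule genes Mpo (26.2 FPKM), Elane (45.1 FPKM), Prtn3 (29.7 FPKM), Ctsg (5.27 FPKM), Ngp (195 FPKM), and Ltf (41.6 FPKM). The 9 markers summed to 687 and 614 FPKM in the WT group and to 2533, 2482, and 2274 FPKM in Adam17-/- replicates 1, 2, and 3. Of the 9 markers, 7 were called higher (77.8%), beside 14.9% of all genes. Most of each sum came from S100a8 and S100a9, which were highest in replicate 1 (752 and 1531 FPKM), and the remaining marker, Camp, was highest in replicate 3 (2.27 FPKM). The part of such cells in the values of Lpl was not tested.

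Fabp4 and Fabp5 encode small cytosolic proteins that carry fatty acids, Fabp4 being best known from adipocytes. Fabp4 rested on few reads, with 101 and 63 counts in the WT group and 96, 93, and 64 counts in the Adam17-/- group. Its levels were 5.29 and 3.41 CPM and 5.25, 6.12, and 3.39 CPM, and the Adam17-/- libraries spanned both WT libraries. The log2 fold change was 0.16 ± 0.272 (SE, edgeR adjusted p = 0.671), with a 95% interval from -0.44 to 0.77. At this depth the interval leaves room for a moderate change in either direction. The sign also rested on single libraries, at 0.51 without WT replicate 1 and -0.12 without WT replicate 2. The adipocyte markers Adipoq, Lep, Plin1, and Cidec were at 0 in every library, and the 6 adipocyte markers summed to 0.15 to 1.06 FPKM.

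Fabp5 was the more abundant of the pair. It was read at 197 and 211 CPM in the WT group and at 177, 205, and 147 CPM in the Adam17-/- group. Adam17-/- replicate 3 was the lowest library and replicate 2 lay between the WT libraries. The log2 fold change was -0.21 ± 0.125 (SE, edgeR adjusted p = 0.234), with a 95% interval from -0.49 to 0.07. Its size moved with the libraries and the scaling. It was -0.31 without Adam17-/- replicate 2, -0.07 without Adam17-/- replicate 3, and -0.06 with library size only, and none of these was called. The log2 ratio of Fabp4 to Fabp5 within a library, which does not depend on scaling between libraries, was -4.58 and -5.31 in the WT group and -4.44, -4.43, and -4.80 in the Adam17-/- group. The group means of the ratio differed by 0.39, with an exact two-sided permutation p of 0.3 (adjusted over 2 ratios, 0.6), where the 10 ways to split the libraries allow no p under 0.1. Single libraries set this difference, which was 0.76 without WT replicate 1 and 0.021 without WT replicate 2.

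Plin2 encodes perilipin 2, the coat protein of lipid droplets in most cells outside adipose tissue. It was read at 302 and 313 CPM in the WT group and at 248, 260, and 248 CPM in the Adam17-/- group. All 3 Adam17-/- libraries were below both WT libraries. The means were 307 ± 7.88 CPM (SD, n = 2) and 252 ± 6.64 CPM (SD, n = 3), and Plin2 fell to 0.820 times its WT level, a log2 fold change of -0.29 ± 0.0763 (SE, edgeR adjusted p = 0.0196) with a 95% interval from -0.46 to -0.12. In CPM the difference was several times the spread within either group, yet small. In FPKM the means lay closer for their spread, at 159 ± 9.17 (SD, n = 2) and 144 ± 3.52 (SD, n = 3). Plin2 passed in 7 of 14 other settings. It lost its call without Adam17-/- replicate 1, 2, or 3, at -0.25, -0.29, and -0.26 (adjusted p = 0.123, 0.0703, and 0.0981), and with library size only, at -0.14 (adjusted p = 0.184).

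Cd9 and Cd63 encode tetraspanins, membrane proteins that organize other proteins in the plasma membrane (CD9) and in late endosomes, lysosomes, and exosomes (CD63). Cd9 was read at 236 and 251 CPM in the WT group and at 238, 253, and 272 CPM in the Adam17-/- group. Cd63 was read at 303 and 287 CPM and at 290, 303, and 311 CPM in the same order. Both were the steadiest of the set, with a highest library 1.15 and 1.08 times the lowest, and the groups overlapped for each. The log2 fold change was 0.06 ± 0.0866 for Cd9 (SE, edgeR adjusted p = 0.610), with a 95% interval from -0.13 to 0.26. For Cd63 it was 0.03 ± 0.0793 (SE, edgeR adjusted p = 0.786), with a 95% interval from -0.15 to 0.21. The log2 ratio of Cd9 to Cd63 was -0.90 and -0.73 in the WT group and -0.83, -0.80, and -0.74 in the Adam17-/- group, and the group means differed by 0.03 (exact two-sided permutation p = 0.9, adjusted 0.9).

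The scale used for comparing libraries moved several of these differences. FPKM values had a median log2 fold change over all genes of 0.15 (with 0.1 added), and on that scale the groups did not overlap for 5 of the 9 genes, beside 59.6% of all genes. They were Spp1, Cd9, and Cd63, higher in the Adam17-/- group, and Gpnmb and Plin2, lower. None of the 9 passed an adjusted p of 0.05 on FPKM in limma, beside 31.4% of all genes with 0.1 added and 30.8% with 1 added. The macrophage markers gave a further reference, chosen after the values were seen. Of 8 such markers, 6 were called lower in the Adam17-/- group (75.0%, beside 16.8% of all genes), with a median of -0.59. Their summed level was 16185 and 16316 FPKM in the WT group and 11289 to 12241 FPKM in the Adam17-/- group. Most of each sum came from Lyz2, at 11923 and 12176 FPKM in the WT group and 8418, 8116, and 8923 FPKM in the Adam17-/- group. Csf1r (-0.29, edgeR adjusted p = 0.0520) and Mertk (-0.06, edgeR adjusted p = 0.572) were not called. The mean log2 CPM of the 8 was lower by a difference of -0.52. Set against that mean within each library, 8 of the 9 genes were higher in the Adam17-/- group, as were 92.8% of all genes, and the groups did not overlap for 6 of the 9, beside 82.9% of all genes. Gpnmb was then at -0.13 with overlapping groups, Plin2 at 0.24, and Spp1 at 0.75, where the median of all genes was 0.53. On this scale Spp1, Lpl at 1.23, and Fabp4 at 0.69 lay above the median of all genes, Cd9 at 0.58, Cd63 at 0.55, and Lgals3 at 0.49 lay near it, and Fabp5 at 0.30, Plin2, and Gpnmb lay below it.

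**Figure D4:**
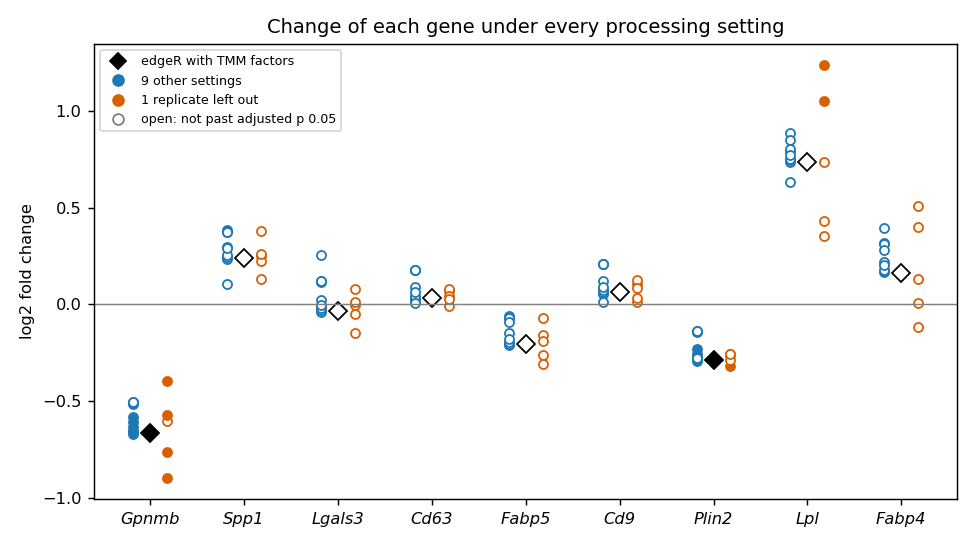
Log2 fold change (y axis) of each of the 9 genes (x axis) with edgeR and TMM factors (diamonds), under 9 other settings (blue), and with 1 replicate left out (orange), with filled symbols past an adjusted p of 0.05. Gpnmb stays below 0 in all settings drawn, from -0.90 to -0.40, while Lgals3 lies on both sides of 0, from -0.15 to 0.26.

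For each of the 9 genes, the pair of genes with the most similar course over the 5 libraries was found, by the root mean square difference of centred log2 CPM. Plin2 had the closest neighbors, Zmpste24 at 0.00633 and Hivep1 at 0.00752, both of which also fell in the Adam17-/- group (-0.27 and -0.28). Gpnmb was nearest to Emc10 at 0.0453 and Oaf at 0.0581, with changes of -0.62 and -0.65. Lpl had the most distant neighbors, Gfi1 at 0.111 and Efnb2 at 0.125, both at low levels, with Gfi1 at 0.271 to 1.25 CPM. Spp1 was nearest to Cavin1 (0.0463) and Nat8l (0.0471), Cd9 to Inafm2 (0.0141) and Ppip5k1 (0.0160), and Cd63 to Zw10 (0.0103) and Selenow (0.0161). Lgals3 was nearest to Polr1e (0.0139) and Ttll4 (0.0147), Fabp4 to Particl (0.0513) and Kifc1 (0.0815), and Fabp5 to Dtd1 (0.0511) and Ly6g5b (0.0586). With only 5 libraries, closeness of this kind describes the libraries and says nothing of shared control.

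Other genes of the same macrophage program moved in both directions. Of 20, 4 rose and 9 fell, beside 14.9% of all genes higher and 16.8% lower. The list's median was -0.20, against 0.01 over all genes tested. The genes that fell made up 45.0% of the list. The scavenger receptor gene Olr1 rose by 1.64 on the log2 scale from a level below 1 FPKM, and the fatty acid receptor gene Cd36 rose by 0.88 (edgeR adjusted p = 0.0477). Lgals1, which encodes galectin-1, fell by 1.08, and the integrin gene Itgax rose by 0.78. Trem2, the lipid-sensing receptor of these cells, was at -0.08 (adjusted p = 0.470), and Apoe, which encodes the main apolipoprotein of macrophages, was at -0.25 (adjusted p = 0.173), both within the spread and named beyond the rule for named genes.

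Genes close in function to the 9 also moved in both directions. Lgals1, Cd36, Atp6v0d2, Plin1, and Cidec stand in more than 1 list. The counts that follow are to be read beside the same 14.9% of all genes higher and 16.8% lower. Among genes of fatty acid uptake and PPAR targets, 3 of 18 tested rose (16.7%) and 7 fell (38.9%), with Vldlr at 0.76 and Rxra at -0.47. Among genes of lipid droplets, 3 of 14 rose (21.4%) and 1 fell (7.14%). Dgat2 and Dgat1, the enzymes of the last step of triglyceride synthesis, rose by 1.07 and 0.55, and the droplet coat gene Plin3 rose by 0.32, whereas Plin2 fell. Of the remaining FABP family, 2 genes were tested and neither passed, Fabp7 at 0.50 (adjusted p = 0.0849) and Fabp3 at -0.49 (adjusted p = 0.305). Other tetraspanins gave 2 of 13 higher (15.4%) and 3 lower (23.1%), led by Tspan33 at 1.46 and Cd151 at -0.66. Of 5 other galectin genes tested, Lgals1 was lower and 0 were higher, and Lgals3bp, which encodes a glycoprotein bound by galectin-3 and stands in the same list, was at -0.73. Among receptors of osteopontin, 5 of 9 fell (55.6%) and 1 rose (11.1%), with Itga8 at -3.24 from 1.5 and 1.66 FPKM in the WT group, Itga9 at -0.93, and Itgb3 at 0.95. The MITF/TFE factors are known to control lysosomal genes including Gpnmb. Of 10 genes listed as these factors and their targets, 2 rose and 2 fell, and the median was -0.01. Atp6v0d2 was at 1.25, Flcn at 0.58, and the factor gene Tfe3 at -0.42. The other factor genes, Mitf (0.22), Tfeb (-0.21), and Tfec (0.03), were not called.

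**Figure D5:**
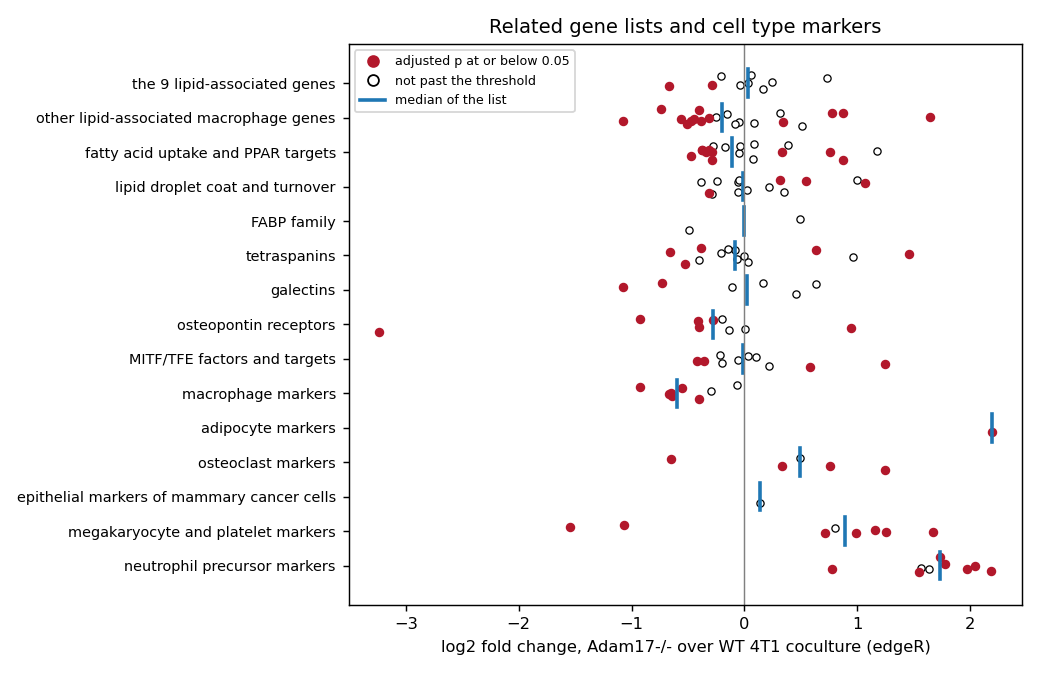
Log2 fold change (x axis) of every tested gene of the 9-gene set and of 14 further lists (rows), with filled points past an adjusted p of 0.05 and a blue bar at the median of each list. The 9 genes have a median of 0.03, the macrophage markers of -0.59, and the markers of neutrophil precursors of 1.73.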

How the data were processed

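RNA was taken from BMDMs after coculture, poly-A selected, and sequenced by BGI. The authors aligned reads to GRCm38 (mm10) with HISAT, and the submitters' processing notes name Bowtie2, RSEM, Bowtie, and DESeq2. Tool versions and the handling of reads from overlapping or antisense genes are not given in the sources used here. The deposited files hold, per transcript, an expected count without normalization. The authors also deposited FPKM, scaled by transcript length and mapped fragments. The lowest FPKM listed was 0.01, and transcripts not listed were taken as 0.

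Expected counts and FPKM were summed per gene number and matched to symbols (17015 of 17057). Rounded counts went into a quasi-likelihood fit (glmQLFit, glmQLFTest) of edgeR 4.0.16 under R 4.3.3, with TMM factors, filterByExpr, and no covariates, with Benjamini-Hochberg adjustment over all genes tested. Of 45 gene sums for the 9 genes, 2 were not whole within 0.02 (Lpl). Levels are CPM on TMM-scaled library sizes, and 3 counts correspond to 0.157 to 0.197 CPM. For log2 CPM a prior count of 2 was used. The edgeR test gives no standard error. Each SE was derived from the log2 fold change and the F statistic, and each 95% interval from that SE and a t distribution. Alternatives were DESeq2 1.42.0, other factors, limma 3.58.1 on FPKM, other filters, the leading transcript, a replicate block, and each replicate left out. The fit was tested on simulated data. The members and lists were chosen with earlier results of these data known. Named genes were the 9, Adam17, up to 4 called genes per list with the largest change, marker genes at or near 0, and the 2 nearest genes of each member. Further genes named were chosen after their values were seen.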

Additional observations from a re-analysis of the deposited data

How the results depend on the processing

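Fold changes of Gpnmb, Plin2, Spp1, Fabp5, Lpl, and Cd9 kept their sign in the 14 settings other than the one relative to the macrophage markers. With limma on log2(FPKM + 0.1) and on log2(FPKM + 1), the test called 0 of the 9 genes, beside 31.4% and 30.8% of all genes, and with the replicate block it called 1 (Gpnmb), beside 18.6%. The count was 1 to 3 with 1 replicate left out, beside 16.1% to 41.9% of all genes. The count past 2-fold was then 0 to 1 (Lpl without WT replicate 1 or Adam17-/- replicate 1). The median of the 9 genes was 0.18 with library size only and 0.18 on FPKM with either pseudocount, where the median of all genes was 0.16, 0.15, and 0.11, and it was -0.12 to 0.080 with 1 replicate left out. Plin2 was not called with the block (-0.28, adjusted p = 0.191). Spp1 passed with library size only (0.39, adjusted p = 0.0475), and Lpl passed without a filter on low counts (0.75, adjusted p = 0.0232).

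Lgals3 turned positive with upper quartile factors (0.022), library size only (0.11), FPKM with either pseudocount (0.12 and 0.12), its leading transcript (0.26), without WT replicate 1 (0.082), and without Adam17-/- replicate 3 (0.012), with a range of -0.15 to 0.082 over the libraries left out. Fabp4 (-0.12) and Cd63 (-0.011) turned negative without WT replicate 2, with ranges of -0.12 to 0.51 and -0.011 to 0.080. The Cd9 to Cd63 ratio turned to -0.056 without WT replicate 1. Relative to the macrophage markers, a setting added after seeing the data, Fabp5 (0.30), Plin2 (0.24), and Lgals3 (0.49) turned positive. The causes were not tested. The labels do not say whether same-numbered libraries shared a mouse or culture. Their deviations from the group means correlated at -0.12 and -0.05 over 12576 genes. With groups of 2 and 3 libraries these correlations cannot settle the question. The depth limits Fabp4 most, at 63 to 101 counts per library.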

Other observations

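Markers of other cell types moved in several directions beside the 9 genes. Of the 5 osteoclast markers tested, Atp6v0d2 (1.25), Ctsk (0.76), and Acp5 (0.33) were higher in the Adam17-/- group and Mmp9 (-0.65) was lower, and Calcr was at 0 in every library. Of 8 megakaryocyte and platelet markers, 5 were higher, with Gp9 at 1.67, Gp1bb at 1.26, and Itga2b at 1.16, whereas the chemokine genes Pf4 (-1.07) and Ppbp (-1.55) were lower. Among markers of neutrophil precursors the largest changes were those of Ltf (2.18), Camp (2.04), Ngp (1.97), and S100a8 (1.78). Of the adipocyte markers only Retn had enough reads to be tested (2.19, edgeR adjusted p = 0.0482), at 0.13 to 1.00 FPKM. The epithelial marker Cdh1 was at 2.33 to 3.17 FPKM, with a log2 fold change of 0.14 (adjusted p = 0.422). The part of other cells in the levels of the 9 genes was not tested.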
